A study of Mus musculus with 3 samples.

Results

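The genes described here are 37 genes of the unfolded protein response and the amino acid stress response in mouse mast cells, out of 31131 genes named on the array. They were listed by symbol, not by a cut-off on their values, though with earlier results of these data known. They fall into 8 roles: 6 factors and effectors of the integrated stress response, 5 enzymes of amino acid and one-carbon synthesis, 2 amino acid transporter subunits, 3 tRNA synthetases, 4 genes for stress sensors and Xbp1, 10 chaperones and cochaperones of the endoplasmic reticulum (ER), 3 disulfide isomerases and 4 genes of ER-associated degradation. All 37 were found, and all 37 were well above background on all 3 arrays.

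Cells make secreted and membrane proteins in the ER, and when unfolded proteins build up there, the sensors Ern1 (IRE1 alpha), Eif2ak3 (PERK) and Atf6 switch on genes for chaperones, disulfide isomerases and degradation factors. PERK also joins the integrated stress response, in which phosphorylated eIF2 alpha slows translation while the transcription factor Atf4 is made and switches on genes for amino acid synthesis, amino acid uptake and tRNA charging. Mast cells hold large stores of secreted proteases and mediators, whose proteins pass through the ER.

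The cells were bone-marrow-derived mast cells (BMMCs), grown from marrow progenitors of male C57BL/6 mice, labelled as 12 weeks old. In every group the mice lacked Pafah2, a phospholipase that releases oxidised fatty acids from phospholipids, and no array of cells with Pafah2 was analysed here. One group received epoxides of omega-3 fatty acids, 2 parts of 17,18-EpETE with 3 parts of 19,20-EpDPE, at 300 nM. Another received GW9662, which blocks the nuclear receptor PPAR gamma, at 0.5 µM, and the last received DMSO, the vehicle. Each treatment lasted 12 h. Total RNA of each group was read on 1 one-colour array, so there were no replicates, no test could be made and the spread between cultures is unknown. The labels do not say how many mice or cultures an array stands for.

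A level below is the log2 of a probe's signal over the 75th percentile of its array, and a log2 ratio is the difference of 2 levels. Between 52.3% and 54.6% of 43020 spots were well above background on each array. The value table deposited by the authors gives the epoxide sample the values of the GW9662 scanner file and the GW9662 sample those of the epoxide file, and nothing in the labels decides between them. Each array is named after the sample that carries its scanner file. If the value table is right, every value given for epoxides belongs to GW9662 and the reverse, the epoxide over GW9662 ratios turn sign, and the values for vehicle stay as they are. All 10 mast cell markers were well above background on all arrays, with summed signals of 539 on the epoxide array, 622 on the GW9662 array and 689 on the vehicle array, in units of the 75th percentile. Of 8 neutrophil and precursor markers, 4 were well above background with epoxides, 4 with GW9662 and 3 with vehicle, with summed signals of 1.34, 1.98 and 1.92 in that order, and Ngp, S100a8, S100a9 and Prtn3 were at background on all arrays. All 5 macrophage and monocyte markers found were well above background, with summed signals of 1.71 on each array. T cell markers summed to 1.44 with epoxides, 2.07 with GW9662 and 2.38 with vehicle, with Cd3e and Cd4 well above background on all arrays and Cd8a on none. Both basophil markers were well above background, with sums of 3.39, 3.08 and 3.36 in the same order, and of 3 stroma markers Pdgfrb alone was, the list summing to 1.11, 0.920 and 0.881. The 3 erythroid markers were not well above background, and of the 4 markers of B and plasma cells only Cd79a was, on the GW9662 array. The part of the cell make-up in the ratios below was not tested. In bulk RNA, fewer cells of a type and less RNA per cell cannot be told apart.

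The promoters of 32 of the 37 genes were matched in RefSeq (GRCm38.p6, 250 bases before to 50 after the start site), and the sites below are shown because they are the known docking sequences of the pathway. Slc7a5, Wars, Atf6, Hyou1 and Manf were not matched. The ER stress element ERSE, CCAAT and CCACG separated by 9 bases, is read by Atf6 together with NF-Y and was defined on chaperone promoters like these, so its presence here is background and no result of the arrays. On either strand it lay in the windows of 8 of the 32 genes (25%) and of 37 of 27025 genes in the whole table (0.137%). Each line gives the gene's own strand 5′ to 3′, with the element in capitals and the position on GRCm38.p6. In Calr and Creld2, and in the second Hsp90b1 site, the element runs in the reverse direction.
Hspa5 (chr2:34772020-34772048, plus strand, 65 bases before the start site): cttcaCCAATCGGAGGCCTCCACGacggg
Hsp90b1 (chr10:86705633-86705661, minus strand, 212 bases before): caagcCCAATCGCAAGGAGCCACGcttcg
Hsp90b1 (chr10:86705528-86705556, minus strand, 107 bases before): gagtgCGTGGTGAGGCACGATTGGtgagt
Canx (chr11:50325795-50325823, minus strand, 145 bases before): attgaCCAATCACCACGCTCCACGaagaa
Pdia6 (chr12:17266486-17266514, plus strand, 98 bases before): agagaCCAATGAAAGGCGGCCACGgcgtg
Dnajc3 (chr14:118937822-118937850, plus strand, 105 bases before): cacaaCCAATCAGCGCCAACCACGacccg
Syvn1 (chr19:6046527-6046555, plus strand, 44 bases before): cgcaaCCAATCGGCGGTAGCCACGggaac
Calr (chr8:84847070-84847098, minus strand, 162 bases before): caacgCGTGGTCGACCCTCATTGGcccat
Creld2 (chr15:88819515-88819543, plus strand, 126 bases before): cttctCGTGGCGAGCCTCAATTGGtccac

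The related element ERSE-II, ATTGG and CCACG separated by 1 base, lay in the window of Herpud1 and of 12 of 27025 genes (0.0444%). The letters TGACGTGG, a form of the element bound by Xbp1, were in none of the 32 windows and in 0.714% of all genes. The C/EBP-ATF response element TGATGNAAN, a docking sequence of Atf4, lay in 5 of the 32 windows (15.6%) and in 1215 of 27025 genes (4.50%). The stricter TTGCATCA, whose reverse complement lies within TGATGNAAN, was in 3 of the 32 windows, those of Chac1 and Herpud1 among them, and in 1.03% of all genes. A match to these letters is a description and does not show that a factor binds there. Sites of 4 genes are shown, capitals again mark the element, and Trib3's site starts 13 bases after the start site.
Herpud1, ERSE-II (chr8:94386368-94386396, plus strand, 52 bases before): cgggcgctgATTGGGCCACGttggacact
Herpud1 (chr8:94386306-94386334, plus strand, 113 bases before): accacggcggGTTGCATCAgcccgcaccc
Chac1 (chr2:119351038-119351066, plus strand, 194 bases before): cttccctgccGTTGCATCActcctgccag
Asns (chr6:7693214-7693242, minus strand, 23 bases before): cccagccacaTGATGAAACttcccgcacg
Trib3 (chr2:152344029-152344057, minus strand): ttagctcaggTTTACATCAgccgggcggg

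None of the 37 genes was 2-fold or 1.5-fold apart between any 2 arrays. In epoxides over vehicle, 2.28% of 15812 measured genes were at least 2-fold apart and 10.2% at least 1.5-fold. In GW9662 over vehicle the shares were 0.823% and 1.84% of 15795 genes, and in epoxides over GW9662 they were 1.16% and 5.73% of 16044 genes. Most of the stress genes gave bright signals: 33 of 37 were at or above the median of detected probes, the others being Atf6, Ern1, Hyou1 and Pdia4. Among the 8476 measured genes that bright, 1.84% were at least 1.5-fold apart in epoxides over vehicle, 0.0826% in GW9662 over vehicle and 0.802% in epoxides over GW9662. A count of 0 among the 37 is therefore near the share of comparably bright genes and sets the list apart from no others.

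The median ratio of the 37 genes was -0.04 for epoxides over vehicle, beside -0.07 over all genes measured, with 14 of them higher and 23 lower. It was -0.04 for GW9662 over vehicle, beside -0.02, with 10 higher and 27 lower. For epoxides over GW9662 it was -0.02, beside -0.06, with 18 higher and 19 lower. The 62.2% of the stress genes that were lower with epoxides than with vehicle stand beside 61.1% of all genes measured, and the 73.0% that were lower with GW9662 stand beside 57.8%. The ratios followed the GC content of the probe, that is, how many of its bases are G or C. A trend in GC content and in signal was removed together and is called the GC trend below. A change after its removal is thus not tied to GC content alone. The split then turned to 22 higher and 15 lower for epoxides over vehicle, beside 8041 and 7771 of all genes measured. It was 16 and 21 for GW9662 over vehicle, beside 7725 and 8070. The removal left a GC relation of the opposite sign in the 37 genes, as given below. Without replicates the only error at hand is that between copies of a probe on an array. From 219 probes with at least 5 copies this technical SD of a log2 ratio was 0.0821 between the epoxide and vehicle arrays, 0.0818 between the GW9662 and vehicle arrays and 0.0786 between the treated arrays, and it leaves out culture, labelling and hybridisation. In epoxides over vehicle 13 of the 37 genes lay more than 2 technical SDs from 0, beside 52.9% of all genes measured. Of these, 9 were lower with epoxides (Aars, Calr, Ddit3, Ern1, Ppp1r15a, Sars, Sesn2, Shmt2 and Xbp1) and 4 were higher (Eif2ak3, Mthfd2, Pdia4 and Trib3). In GW9662 over vehicle only Ddit3 and Ppp1r15a lay that far out, both lower with GW9662, beside 21.4% of all genes. In epoxides over GW9662 there were 13 such genes, 6 of them lower and 7 higher, beside 44.9%.

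**Figure D1:**
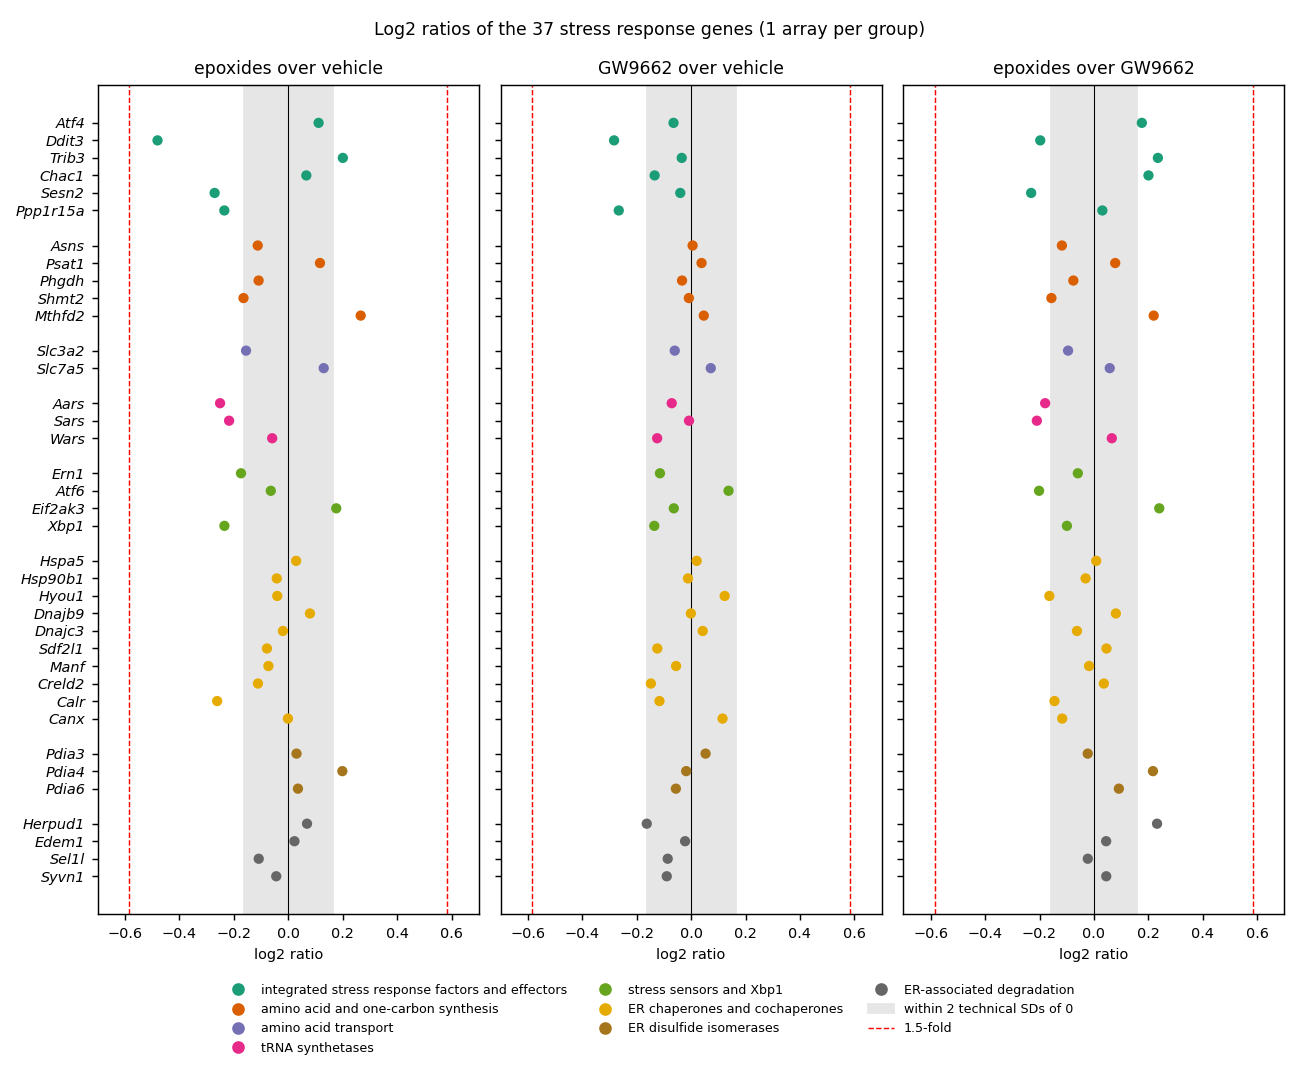
Log2 ratio (x axis) of each of the 37 genes (y axis, grouped and coloured by role) in 3 panels (both treated arrays over vehicle, then epoxides over GW9662), with 1 array per group. The grey band covers 2 technical SDs on either side of 0 and the dashed lines mark 1.5-fold; every point lies between the dashed lines, and Ddit3 lies farthest out at -0.48 for epoxides over vehicle.

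Among the factors and effectors of the integrated stress response, Ddit3 (CHOP), a transcription factor that promotes cell death under lasting stress, stood farthest from 0. Its level was 0.18 on the epoxide array, 0.38 on the GW9662 array and 0.66 on the vehicle array, a ratio of -0.48 (1.40-fold lower) for epoxides over vehicle and -0.28 (1.22-fold lower) for GW9662 over vehicle. Its probe lies in the middle rows of the array, which 2 processing alternatives leave out and where 15 of the 37 genes are read, and the files list the probe as unmapped. Ppp1r15a (GADD34), which brings the phosphatase that ends the response, had a level of 3.61 with epoxides, 3.58 with GW9662 and 3.84 with vehicle. Both treated arrays were thus below vehicle for these 2 genes, by 1.18-fold and 1.20-fold for Ppp1r15a. Here and below, both ratios share the same vehicle array, so a common direction is not 2 independent readings. Its probe (mm9 chr7:52778320-52778379, minus strand) lies outside those rows.

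Atf4 itself had a level of 6.62 with epoxides, 6.44 with GW9662 and 6.51 with vehicle, ratios of 0.11 and -0.06 to vehicle. Translation, which is where Atf4 is mainly controlled, is not read by these arrays. Trib3, a pseudokinase induced by Atf4 and Ddit3 that restrains Atf4, had a level of 3.38 with epoxides, 3.14 with GW9662 and 3.18 with vehicle, 1.15-fold higher on the epoxide array than on the vehicle array. Sesn2, a leucine sensor that holds back mTORC1, was lower with epoxides at 1.94, against 2.17 with GW9662 and 2.21 with vehicle. Chac1, which breaks down glutathione, was at 1.87 with epoxides, 1.67 with GW9662 and 1.80 with vehicle, so the epoxide array was highest for Chac1 and Trib3 and lowest for Ddit3 and Sesn2. The 6 genes of this role did not lie on one side of vehicle with epoxides, 3 being higher and 3 lower, while all 6 were lower with GW9662, by 0.03 to 0.28 on the log2 scale (5 of 6 with the GC trend removed, Sesn2 then being at 0.04).

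**Figure D2:**
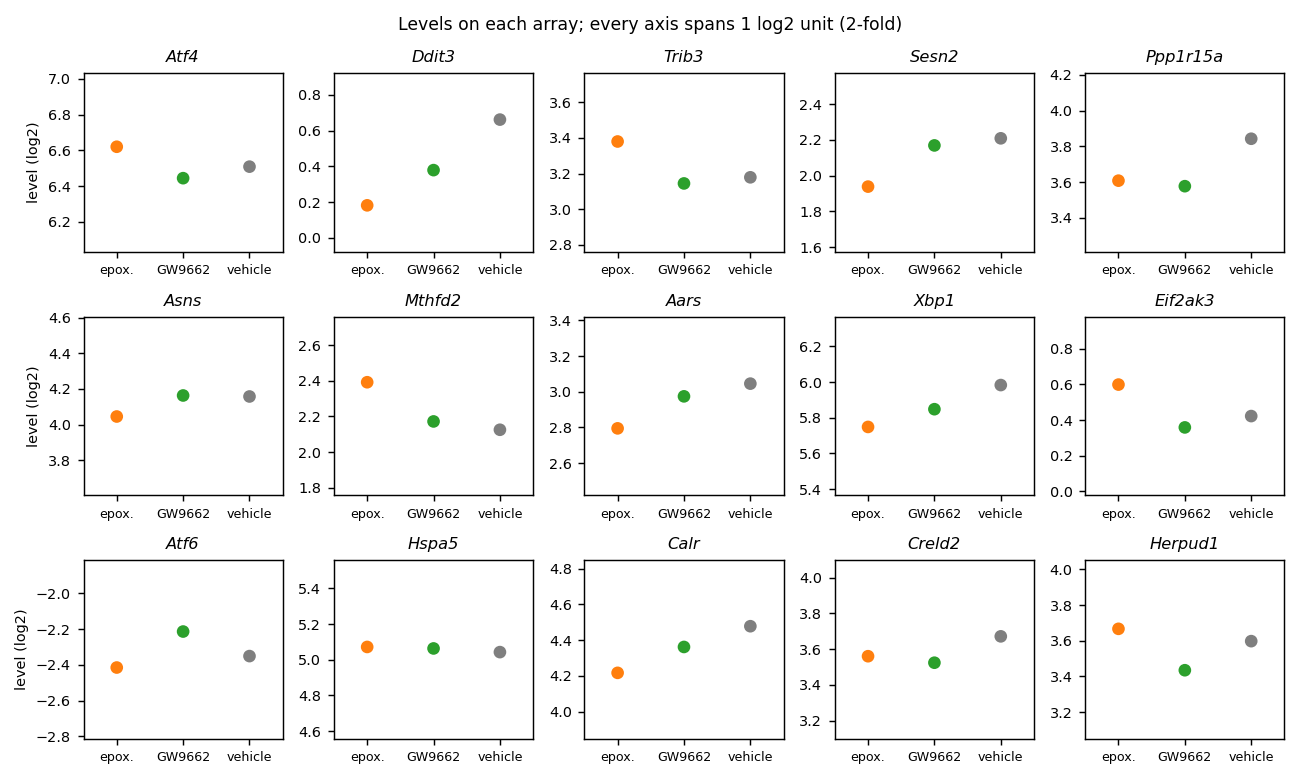
Level of 15 of the genes (y axes, log2 of signal over the array's 75th percentile) on the epoxide, GW9662 and vehicle arrays, each point being 1 array. Every axis spans 1 log2 unit (2-fold); Ddit3 runs from 0.18 with epoxides through 0.38 with GW9662 to 0.66 with vehicle, while Hspa5 lies between 5.04 and 5.07 on all arrays.

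The enzymes that make amino acids and one-carbon units were split as scaled. Mthfd2, a mitochondrial enzyme of folate metabolism, was the highest of the 37 ratios for epoxides over vehicle at 0.27 (1.20-fold), with a level of 2.39 with epoxides, 2.17 with GW9662 and 2.13 with vehicle. Shmt2, the mitochondrial serine hydroxymethyltransferase that feeds the same pathway, was lower, at 2.03 with epoxides, against 2.18 with GW9662 and 2.19 with vehicle. Asns, asparagine synthetase and a classic Atf4 target, had a level of 4.05 with epoxides and 4.16 with both GW9662 and vehicle. Psat1, of the serine synthesis pathway, was at 3.81, 3.73 and 3.70 on the epoxide, GW9662 and vehicle arrays. Phgdh, the first enzyme of that pathway, was at 2.31 with epoxides, 2.39 with GW9662 and 2.42 with vehicle. As scaled, the epoxide array was thus lowest for Asns, Shmt2 and Phgdh and highest for Psat1 and Mthfd2. Once the GC trend was removed, 4 of 5 were higher for epoxides over vehicle by their brightest probes. Shmt2 was then at 0.13, Mthfd2 at 0.11, Phgdh at 0.04 and Psat1 at 0.01, while Asns stayed lower at -0.11. The other Phgdh probes were then at -0.10 and -0.02, and the brightest one is annotated to another chromosome than these, as given below. The value of 0.01 for Psat1 is within 1 technical SD of 0, and its other probe was at 0.21. With GW9662 the ratios of these 5 genes to vehicle all lay between -0.03 and 0.05, within 1 technical SD.

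The subunits of the leucine transporter lay on opposite sides of vehicle as scaled, but not with the GC trend removed. Slc3a2, its heavy chain, was at 5.39 with epoxides, 5.48 with GW9662 and 5.54 with vehicle. Slc7a5, its transporting light chain, was at 1.88 with epoxides, 1.82 with GW9662 and 1.75 with vehicle. With the GC trend removed Slc3a2, whose probe is bright and has 53.3% G and C, turned sign from -0.16 to 0.26 for epoxides over vehicle. Slc7a5 was then at 0.07. The trend removed holds signal as well as GC content. All 3 tRNA synthetases, which load amino acids onto tRNAs, were lower with epoxides than with vehicle as scaled, and 1 of 3 with the GC trend removed (Wars, at -0.18). Aars, for alanine, was at 2.79 with epoxides, 2.97 with GW9662 and 3.05 with vehicle, a ratio of -0.25 for epoxides over vehicle. Sars, for serine, gave -0.22 for epoxides over vehicle and -0.01 for GW9662 over vehicle, and Wars, for tryptophan, gave -0.06 and -0.12.

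Xbp1, the transcription factor whose mRNA is spliced by Ern1, had a level of 5.75 with epoxides, 5.85 with GW9662 and 5.98 with vehicle. Its ratio to vehicle was -0.23 for epoxides and -0.14 for GW9662, so both treated arrays were below vehicle. A single probe gives no measure of splicing. Among the sensors, Eif2ak3 was at 0.60 with epoxides, 0.36 with GW9662 and 0.42 with vehicle, the highest ratio of the list for epoxides over GW9662 at 0.24. Atf6 was dim, at -2.42 with epoxides, -2.21 with GW9662 and -2.35 with vehicle, and its 0.14 was the highest ratio of the list for GW9662 over vehicle. Ern1 gave -0.17 for epoxides over vehicle and -0.11 for GW9662 over vehicle. As scaled, the sensors therefore had no common direction on either treated array. After removal of the GC trend all 3 were higher for epoxides over vehicle, Ern1 at 0.18, Atf6 at 0.14 and Eif2ak3 at 0.02. For GW9662 over vehicle they still lay on both sides of 0.

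The 10 ER chaperones and cochaperones had a median ratio of -0.04 for epoxides over vehicle, with 8 of 10 lower, and of -0.01 for GW9662 over vehicle, with 6 of 10 lower. With the GC trend removed 5 of 10 were lower for epoxides over vehicle, so the chaperones had no common direction. Hspa5 (BiP), the main ER chaperone, whose mRNA is a common readout of the unfolded protein response, had a level of 5.07 with epoxides, 5.06 with GW9662 and 5.04 with vehicle. As scaled, these 3 values lie within 1 technical SD of each other. This depends on the scaling: the Hspa5 ratio for epoxides over vehicle was 0.20 with quantile normalization and 0.16 with cyclic loess. Hsp90b1 (GRP94) gave ratios of -0.04 and -0.01 for epoxides and GW9662 over vehicle, and Dnajc3 (p58IPK) gave -0.02 and 0.04. Calr, the calcium-binding lectin chaperone, lay farthest from 0 of this role for epoxides over vehicle (-0.26), at 4.22 with epoxides, 4.36 with GW9662 and 4.48 with vehicle. Its membrane-bound relative Canx was at 4.05 with epoxides, 4.17 with GW9662 and 4.05 with vehicle. Dnajb9 (ERdj4), Sdf2l1, Manf and Hyou1 had ratios to vehicle between -0.08 and 0.08 with epoxides and between -0.12 and 0.12 with GW9662. The Hyou1 probe was dim, at levels of -4.36, -4.19 and -4.32 on the epoxide, GW9662 and vehicle arrays.

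Of the disulfide isomerases, which form and shuffle disulfide bonds, Pdia4 had a level of -1.13 with epoxides, -1.35 with GW9662 and -1.33 with vehicle, 1.15-fold higher on the epoxide array than on the vehicle array. Pdia3 and Pdia6 were within 0.06 of 0 on the log2 scale in both comparisons with vehicle. In ER-associated degradation, Herpud1, a membrane protein of the degradation complex, was at 3.67 with epoxides, 3.43 with GW9662 and 3.60 with vehicle. Its ratio was 0.23 for epoxides over GW9662 but 0.07 for epoxides over vehicle. Edem1, which picks glycoproteins for degradation, Sel1l and its partner ubiquitin ligase Syvn1 gave ratios of 0.02, -0.11 and -0.04 for epoxides over vehicle and of -0.02, -0.09 and -0.09 for GW9662 over vehicle. All 4 genes of this role were thus lower with GW9662 than with vehicle, by at most 0.16 on the log2 scale.

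Read against the promoter sites shown above, the 8 genes with an ERSE had ratios from -0.26 (Calr) to 0.04 (Pdia6) for epoxides over vehicle, with a median of -0.03, beside -0.09 for the other 24 matched genes. For GW9662 over vehicle their medians were -0.03 and -0.05. The 5 genes with a C/EBP-ATF element had a median of 0.07 for epoxides over vehicle, with 2 of 5 below 0 and Trib3 highest at 0.20, and of -0.07 for GW9662 over vehicle, from -0.16 (Herpud1) to 0.01 (Asns). With the GC trend removed the order of these medians turned for epoxides over vehicle: -0.006 with an ERSE and 0.023 without, and 0.007 with a C/EBP-ATF element and 0.021 without. Genes sharing an element were thus on both sides of 0. These medians were not tested.

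Creld2, an ER stress-inducible disulfide isomerase, is the only gene of the list whose probe is printed many times on the array, so its copies show the measuring error directly. Its level was 3.56 ± 0.058 over 10 copies on the epoxide array, 3.52 ± 0.062 over 10 copies on the GW9662 array and 3.67 ± 0.066 over 9 unmarked copies on the vehicle array (SD over copies, 1 array each). Taken copy by copy at the same position, the ratio was -0.11 ± 0.029 for epoxides over vehicle and -0.15 ± 0.026 for GW9662 over vehicle (SD, 9 copies), and all 9 copies were lower on both treated arrays. For epoxides over GW9662 it was 0.04 ± 0.025, higher in 9 of 9 copies. The copies share 1 RNA, 1 labelling and 1 array, so they say nothing of the spread between cultures. With the trend in probe GC content and signal removed, the mean ratio was 0.03 for epoxides over vehicle and -0.11 for GW9662 over vehicle. The first of these thus turned sign.

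**Figure D3:**
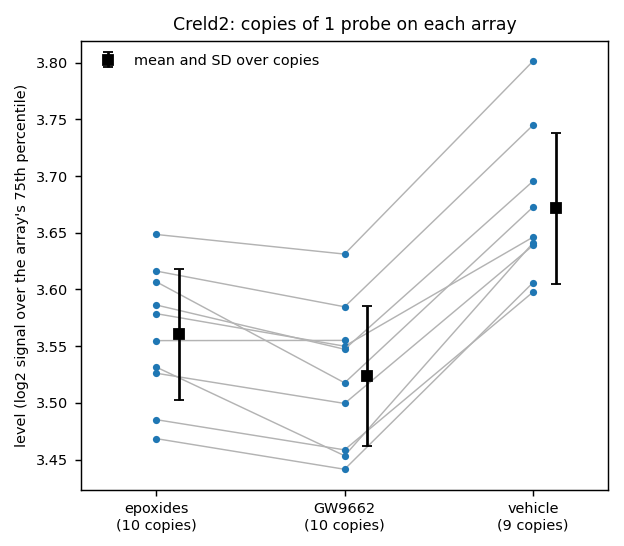
Level of Creld2 (y axis, log2 of signal over the array's 75th percentile) in each unmarked copy of its probe on the epoxide, GW9662 and vehicle arrays; lines join copies at the same array position and squares with bars give the mean and SD over copies. All copies measured on the vehicle array lie above the same copies on both treated arrays.

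The relation with GC content was steeper for epoxides than for GW9662. In epoxides over vehicle, Pearson's r between the log2 ratio and the GC content of the probe was -0.48 over 15812 genes and -0.63 over the 37 genes, which share the same pair of arrays. The slope was nevertheless shallower in the 37, at -0.140 log2 units per 10% GC, against -0.249 over all genes. In GW9662 over vehicle r was -0.21 over all genes and -0.13 over the 37. The 23 stress genes with a probe GC content of 40% or less had a median ratio of 0.03 for epoxides over vehicle, and the 14 above 40% had -0.16, beside 0.08 and -0.20 for all genes split the same way. Aars, Sars, Sesn2, Calr, Shmt2 and Ern1, all among the lower genes, have probes with 51.7% to 55.0% G and C. Mthfd2 and Eif2ak3, among the higher ones, have probes with 35.0%. When a quadratic trend in GC content and signal was removed from each array, the ratios of these genes for epoxides over vehicle became 0.01 for Aars, 0.12 for Sars, 0.02 for Sesn2, 0.05 for Calr, 0.13 for Shmt2, 0.18 for Ern1, 0.11 for Mthfd2 and 0.02 for Eif2ak3. Ppp1r15a, Ddit3 and Xbp1 stayed below 0 at -0.35, -0.27 and -0.17, and Pdia4 and Trib3 stayed above it at 0.31 and 0.17. The median of the 37 then was 0.02. The trend was fitted over all detected probes, and its removal overshot for the 37 genes. Pearson's r after it was -0.009 over all genes but 0.38 over the 37. Of the 14 genes above 40%, 13 were then higher with epoxides than with vehicle, against 9 of the 23 others. For GW9662 over vehicle r over the 37 became 0.29. Values of single genes with the trend removed carry this limit. Whether the trend comes from the samples or the measurement was not tested.

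**Figure D4:**
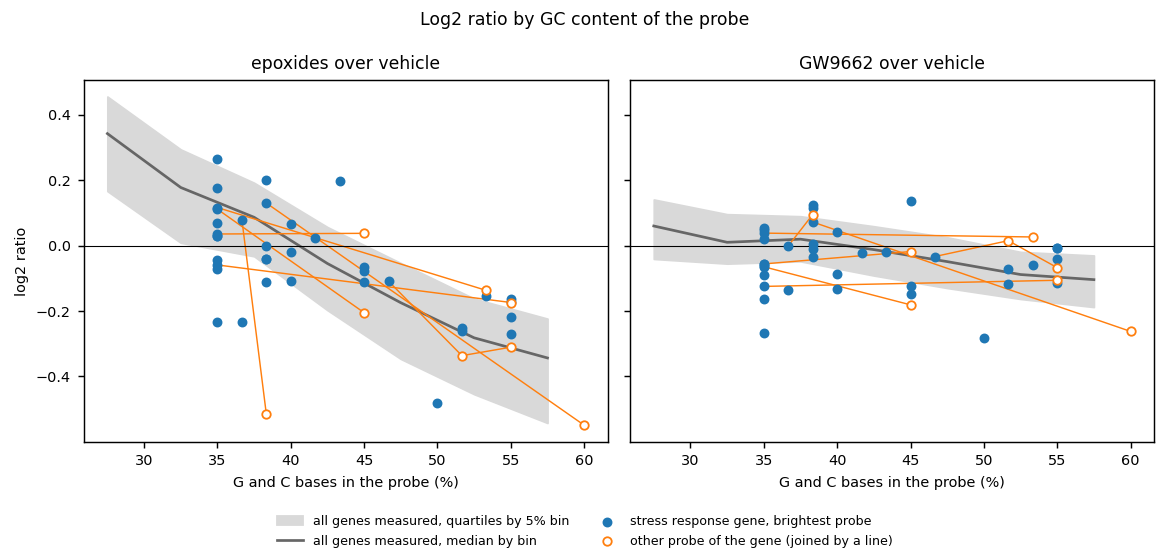
Log2 ratio (y axis) against the GC content of the probe (x axis, %) for epoxides over vehicle (left) and GW9662 over vehicle (right). The line and band give the median and quartiles of all genes measured in bins of 5%, filled points the brightest probe of each stress gene and open points its other probes, joined by lines; the line runs from 0.34 down to -0.34 in the left panel and from 0.06 down to -0.10 in the right one.

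The probes of Ddit3 and of the transporter subunit Slc7a5 show what such sequences look like and are given 5′ to 3′ with every G and C in capitals. Ddit3 lies on chromosome 10 in RefSeq, and 30 of the 60 bases of its probe are G or C. The Slc7a5 probe shown is its second, dimmer one (mm9 chr8:124430996-124431055, minus strand), in which 36 of 60 are.
Ddit3: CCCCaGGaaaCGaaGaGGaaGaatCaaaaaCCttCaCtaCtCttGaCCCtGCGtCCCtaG
Slc7a5: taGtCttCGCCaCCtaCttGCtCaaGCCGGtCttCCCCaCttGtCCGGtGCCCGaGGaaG

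For 7 of the genes more than 1 probe was well above background, and in some of them the probes gave different ratios on the same pair of arrays. The brighter Slc7a5 probe (38.3% G and C) gave 0.13 for epoxides over vehicle and the one printed above (60.0%) gave -0.55. For GW9662 over vehicle they gave 0.07 and -0.26. The brighter Atf4 probe (35.0%) gave 0.11 and the other (45.0%) gave -0.21 for epoxides over vehicle, and -0.06 and -0.18 for GW9662 over vehicle. Psat1 gave 0.12 with its brighter probe (35.0%) and -0.14 with the other (53.3%) for epoxides over vehicle. Dnajb9 gave 0.08 and -0.52 although its probes are alike in GC content (36.7% and 38.3%); the second is dim, at levels of -3.96 with epoxides, -3.35 with GW9662 and -3.45 with vehicle. In all, the probes of 4 genes differed in direction for epoxides over vehicle and those of 3 genes for GW9662 over vehicle. The Pdia6 probes (35.0% and 45.0%) both gave 0.04 for epoxides over vehicle, and the Wars probes (35.0% and 55.0%) gave -0.06 and -0.17. For GW9662 over vehicle Pdia6 gave -0.06 and -0.02, and Wars gave -0.12 and -0.11. The brightest Phgdh probe is annotated to mm9 chromosome 17 through another transcript, and the other probes to chromosomes 3 and 8, so its value is uncertain. For epoxides over vehicle its 3 probes gave ratios between -0.34 and -0.11.

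A wider list of 50 further Atf4 pathway genes, 45 of them measured, had medians of -0.01 for epoxides over vehicle and 0.01 for GW9662 over vehicle. Of these, 1 was at least 1.5-fold apart: Eprs, the glutamate and proline tRNA synthetase, was at 0.96 with epoxides, 0.47 with GW9662 and 0.17 with vehicle, a ratio of 0.79 (1.72-fold) for epoxides over vehicle. Its probe has 23.3% G and C, and with the GC trend removed the ratio was 0.24. Next came Slc1a4, a neutral amino acid transporter, at 0.55 and Vars, for valine, at -0.45, which became 0.40 and -0.16 with the GC trend removed. For GW9662 over vehicle the farthest were Atf3, a stress-induced transcription factor measured by a dim probe, at -0.55, and Crebrf and Eprs, both at 0.30 (Eprs at 0.18 with the GC trend removed). Among 50 further ER folding and degradation genes, 49 of them measured, none was 1.5-fold apart by its brightest probe, and the medians were 0.03 for epoxides over vehicle and -0.01 for GW9662 over vehicle. Spcs2, of the signal peptidase, was at 2.49 with epoxides, 2.95 with GW9662 and 2.95 with vehicle, ratios of -0.46 and -0.001 to vehicle. Its second probe, also well above background on all arrays, was at -0.82 with epoxides, -0.10 with GW9662 and 0.19 with vehicle, ratios of -1.01 and -0.29, so Spcs2 was over 2-fold lower with epoxides by that probe. P4hb (PDI), the founding disulfide isomerase, was at 2.64 with epoxides, 2.91 with GW9662 and 3.04 with vehicle, and its ratio of -0.39 for epoxides over vehicle was -0.44 with the GC trend removed. Erlec1, an ER lectin, was higher on both treated arrays, at -1.13 with epoxides and -1.21 with GW9662, against -1.53 with vehicle. For GW9662 over vehicle, Wfs1, an ER membrane protein, was at -0.28 and Ero1l, the oxidase that recharges disulfide isomerases, at 0.20. The wider genes farthest from 0 for epoxides over GW9662 were Eprs at 0.49, Slc1a4 at 0.47 and the dim Atf3 at 0.39 in the Atf4 list, and Spcs2 at -0.46, Pdia5, a disulfide isomerase, at 0.35 and Edem3, which trims glycoproteins for degradation, at 0.27 in the ER list. With the GC trend removed Eprs was at 0.06 and Atf3 at 0.66, so this order depends on the trend; Slc1a4, Spcs2, Pdia5 and Edem3 were at 0.36, -0.37, 0.48 and 0.17.

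Over the processing alternatives other than the value table, 12 of the 37 genes kept their direction for epoxides over vehicle and 25 changed sign. Some alternatives could not change a gene with a single probe without copies. Averaging probes, keeping dim probes, keeping bright genes alone and leaving out the middle rows then returned the ratio as scaled or none. A kept direction rests on the remaining alternatives for such genes. Ddit3, Ppp1r15a, Asns, Xbp1, Manf and Sel1l were lower under every alternative that measured them, and Trib3, Chac1, Mthfd2, Eif2ak3, Pdia4 and Edem1 were higher. For Ddit3 the ratio ran from -0.49 to -0.27 and for Ppp1r15a from -0.35 to -0.15. For Xbp1 it ran from -0.23 to -0.01, the upper end being quantile normalization. For GW9662 over vehicle, 18 genes were lower and 8 higher under all of them, with Ddit3 between -0.29 and -0.23, Ppp1r15a between -0.29 and -0.23 and Atf6 between 0.10 and 0.19. For epoxides over GW9662, Trib3 ran from 0.21 to 0.29, Atf4 from 0.08 to 0.39 and Chac1 from 0.18 to 0.23, all higher with epoxides, while Ddit3 ran from -0.21 to -0.04. The low end for Atf4 averages both of its probes, and its dimmer probe taken alone was at -0.02.

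**Figure D5:**
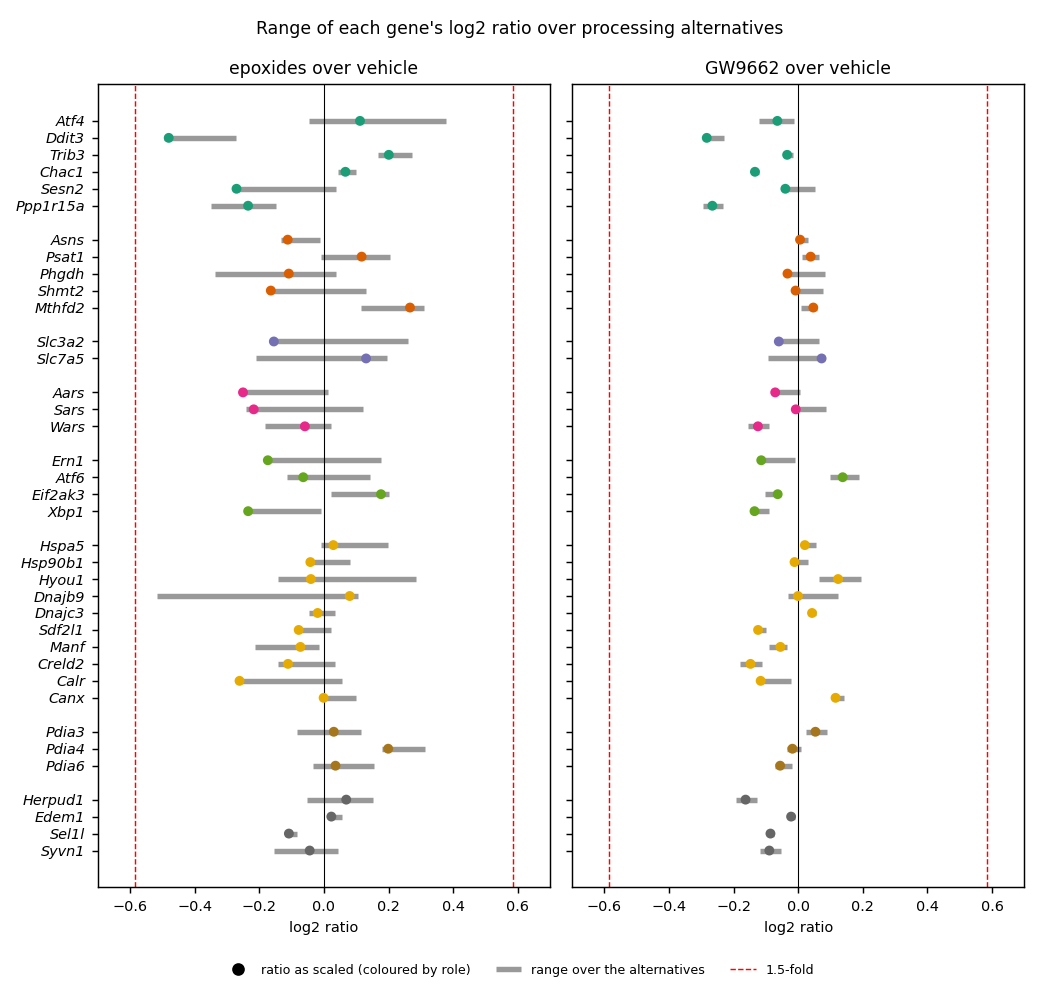
Range of the log2 ratio of each of the 37 genes (x axis) over the processing alternatives other than the value table (grey bars), with the ratio as scaled (points, coloured by role), for epoxides over vehicle (left) and GW9662 over vehicle (right). For epoxides over vehicle the bars of 25 genes cross 0, and those of Ddit3 and Ppp1r15a lie below 0 in both panels.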

How the data were processed

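Per the file headers, the gProcessedSignal used is a linear intensity from which Agilent Feature Extraction 11.5.1.1 had taken the background and a spatial trend, and gMeanSignal and gBGMedianSignal are intensity values per spot. The labels give 200 ng of total RNA per labelling. The authors' deposited value table holds a linear ratio, signal over 75th percentile (the same quotient for all spots within 0.001), with column medians of 0.0500 for the epoxide sample, 0.0413 for GW9662 and 0.0524 for vehicle; its treated columns match each other's scanner files, and their true order is unknown.

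Each signal was divided by the array's 75th percentile over the non-control spots and log2 was taken. Spots the scanner software marked non-uniform or outlying among copies were dropped, copies of a probe averaged, and each gene read by its brightest probe over the 3 arrays. Measured means well above background on both arrays. Probes were named through RefSeq accessions where listed (28330 of 39429) and otherwise by the files; positions of probes follow the files (build mm9), and exon or UTR annotation of that build was not used here. With 1 array per group no test was made and intervals between groups cannot be given; the number of arrays limits the precision. The steps were tested on simulated data. The sequence of 1 matched promoter site is not reported here. Values were given on every array for Atf4, Ddit3, Xbp1, Hspa5, Asns and Trib3, for the 5 genes farthest from 0 in each comparison and for genes whose probes differ in direction; genes at least 1.5-fold apart would have been added. Of each wider list the 3 genes farthest from 0 in each comparison are named. Further genes were given their levels after their values were seen. The members and lists were chosen with earlier results of these data known. Tools were Python 3.11.15, pandas 2.3.3, R 4.3.3 and limma 3.58.1. Alternatives were normexp (offset 50), cyclic loess, quantile normalization, scaling on detected probes, averaging all probes of a gene, the value table, keeping dim probes, keeping bright genes alone (median signal or more), leaving out the middle rows of the array, removing a trend (quadratic in probe GC content and in signal), both of these together, and 1.5-fold for counts.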

Additional observations from a re-analysis of the deposited data

How the results depend on the processing

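Under all 11 alternatives the count of the 37 genes at least 2-fold apart stayed at 0 in each comparison, and the count at least 1.5-fold apart was 0 as well except in epoxides over GW9662 without the middle rows of the array, where Dnajb9, then read by its dim second probe, was at -0.61. The median of the 37 lay between -0.07 and 0.02 for epoxides over vehicle, between -0.06 and 0.001 for GW9662 over vehicle and between -0.05 and 0.06 for epoxides over GW9662, always less than the SD over the genes. With the value table, whose treated columns are exchanged, Ddit3 was at -0.28 for epoxides over vehicle and -0.48 for GW9662 over vehicle, and the median for epoxides over GW9662 was 0.02. With no filter on dim probes the median over all genes moved to -0.32, -0.11 and -0.24 in the same order of comparisons, while the 37 genes stayed as they were. Leaving out a replicate was not possible with 1 array per group. No paired analysis was possible because each group has 1 array. Dim probes limit what can be said of Hyou1 and Atf6.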

Other observations

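The ratio of a probe formed copy by copy at the same array position varied less than its separate levels would give. Over the 219 probes with at least 5 copies, the median SD of such ratios against the vehicle array was 0.0430 with epoxides and 0.0370 with GW9662, and between the treated arrays it was 0.0349, beside the technical SDs of 0.0821, 0.0818 and 0.0786 computed from the levels. The counts of stress genes beyond 2 technical SDs, and the ratios said to lie within 1 technical SD, rest on the wider values. By the narrower ones the counts could only stay or rise. Mthfd2 and Psat1, at 0.047 and 0.038 for GW9662 over vehicle, would lie beyond 1 SD.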
